A study of Mus musculus with 367 samples.

Results

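The VEGF and angiopoietin family genes described here are the 10 genes Vegfa, Vegfb, Vegfc, Angpt1, Angpt2, Angptl1, Angptl2, Angptl4, Nrp1 and Nrp2, of 50600 genes in all. They were chosen by name and each was matched by its Ensembl identifier. RNA was measured in single cells of mouse skin wounds at post-wounding day (PWD) 12, 15 and 21. The mice carried Sm22-Cre, in which the promoter of Tagln, a contractile protein gene of smooth muscle, drives Cre recombinase, together with a tdTomato reporter that Cre turns on. Excisional wounds with sides of 1.5 cm were made on the back of mice that were 3 to 8 weeks old by the labels, while the methods of the study give a narrower range within this one. Wound tissue of 2 to 3 animals was pooled per time point. Viable cells with high tdTomato were sorted and captured singly on a C1 microfluidic chip, and all groups share this genotype, wound and sort. There were 3 captures at day 12, 2 at day 15 and 2 at day 21, with no unwounded group. The marker reports that the Tagln promoter has been active in a cell or its ancestors, so it does not mark a single cell type. The methods name animals as the biological replicates but do not tie the captures of a day to separate animals or pools. For days, p-values therefore measure the spread between captures. For kinds, compared within captures, they measure how a difference between kinds varied from capture to capture. Either spread may be technical.

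Of 367 deposited cells, 292 passed the filters on depth, genes and mitochondrial share. Cells were sorted into kinds by genes outside the family. Matrix cells had at least 1000 FPKM of the collagen gene Col1a1, below 100 FPKM of Rgs5 and below 50 FPKM of Tyrobp. Mural cells, named after the kind that wraps small vessels, had at least 500 FPKM of Rgs5 and below 50 FPKM of Tyrobp. The name rests on RNA markers alone. The study counts its RGS5-stained cells as wound fibroblasts and places most of them away from blood vessels, so contact with vessels is not known for these cells. Myeloid cells had at least 500 FPKM of Tyrobp, an adaptor of immune receptors. FPKM is the number of fragments scaled by the length of the transcript and the total of the cell, so that levels of different genes can be compared per length. This gave 198 matrix, 57 mural and 26 myeloid cells, and 11 cells of no kind. The median depth of a capture was estimated at 959693 to 2375015 fragments, and both day 15 captures lay at the lower end. At the median depth a single fragment was worth 0.106 FPKM for the long Nrp2 transcript and 0.696 FPKM for the short Vegfb transcript.

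The marker lists of the kinds followed their labels, with exceptions. Each list includes the gene that set its kind (Col1a1, Rgs5 or Tyrobp), so part of this was fixed by the limits. Rgs5 alone had means of 6380 to 8190 FPKM in the mural captures with 3 or more cells. All 10 mural markers were detected in mural cells, with a summed level of 8680 to 10900 FPKM per capture against 1.25 to 65.4 FPKM in matrix cells. The 10 myeloid markers summed to 24400 to 39900 FPKM in myeloid cells and to at most 74.2 FPKM in the other kinds. Matrix markers were not confined to matrix cells, since 19 of 57 mural and 4 of 26 myeloid cells also reached 1000 FPKM of Col1a1. The mural cells of day 21 capture 1 had a matrix marker sum of 21300 FPKM, against 6310 to 9040 FPKM in the other mural captures. The myeloid cells of day 15 capture 2 had 16100 FPKM, against 102 to 6180 FPKM in the other myeloid captures. Endothelial markers summed to 72.9 to 285 FPKM in mural cells, where Cdh5, Cldn5 and Tek were at 0, and to at most 8.86 FPKM in the other kinds. Doublets were not called here, and by the methods of the study only wells seen under the microscope to hold a single cell were used.

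Vascular endothelial growth factors are secreted ligands that act on receptor tyrosine kinases of endothelial cells, and drive the sprouting of blood and lymph vessels. Angiopoietins act on the receptor Tek, also called Tie2: Angpt1 stabilises vessels and Angpt2 opposes it in many settings. The angiopoietin-like proteins share the fold of angiopoietins without binding Tek, and neuropilins are co-receptors for VEGFs and class 3 semaphorins. Vessels of healing skin first grow and are later pruned, and mural cells and fibroblasts are known sources of these ligands.

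Averaged per capture, the levels of the family were ordered differently in the 3 kinds. In matrix cells Angptl2 (101 ± 38 FPKM, SD, n = 7 captures) and Angptl1 (99.2 ± 54.4 FPKM) came first and Vegfa last (1.78 ± 1.85 FPKM). In mural cells Angpt2 (76.9 ± 68.4 FPKM, n = 5) and Angptl2 (75.5 ± 47.7 FPKM) came first, with Angpt2 highest through day 12 capture 1 at 195 FPKM, and Vegfc last (0.731 ± 1.28 FPKM). In myeloid cells Nrp1 (83.9 ± 76.4 FPKM, n = 4) came first, and Angpt1 and Angpt2 were listed at 0 in each of the 4 captures. The ranges of mean ± SD of neighbours in these orders overlapped at each step, so only genes far apart in an order stood apart. Captures with fewer than 3 cells of a kind were left out of these means.

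**Figure D1:**
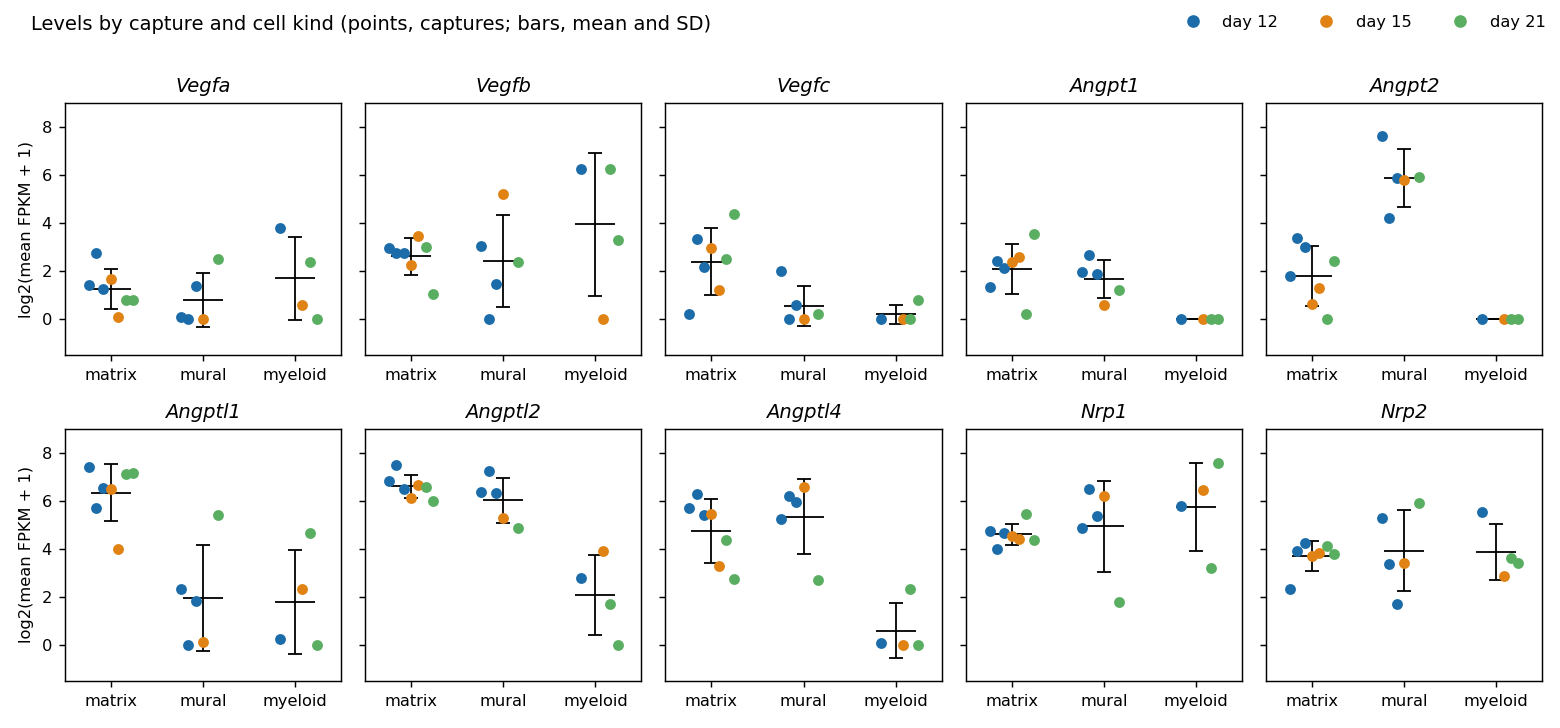
Levels of the 10 genes on the scale log2(mean FPKM + 1), by cell kind, with a point per capture coloured by day and bars for the mean and SD over 7 matrix, 5 mural and 4 myeloid captures. Angpt2 stands high in mural cells, Angptl1 in matrix cells, and Angptl2 is low in myeloid cells alone.

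Levels were compared between kinds with limma on log2(mean FPKM + 1) per capture and kind, with the capture as a block and p-values adjusted by Benjamini-Hochberg over 14022 genes. Differences are given on that log2 scale, which understates changes of genes with low levels. Between mural and matrix cells 2 of the 10 genes passed an adjusted p of 0.05, against 1.05% of all genes tested. Between myeloid and matrix cells 4 of 10 passed, all lower in myeloid cells, against 15.7% of all genes. Between myeloid and mural cells 2 of 10 passed, both lower in myeloid cells, against 6.55% of all genes. The median difference of the 10 genes was -0.42 for mural against matrix cells, beside -0.25 over all genes. For myeloid against matrix cells these medians were -1.93 and -0.85, and for myeloid against mural cells -0.47 and -0.58.

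**Figure D2:**
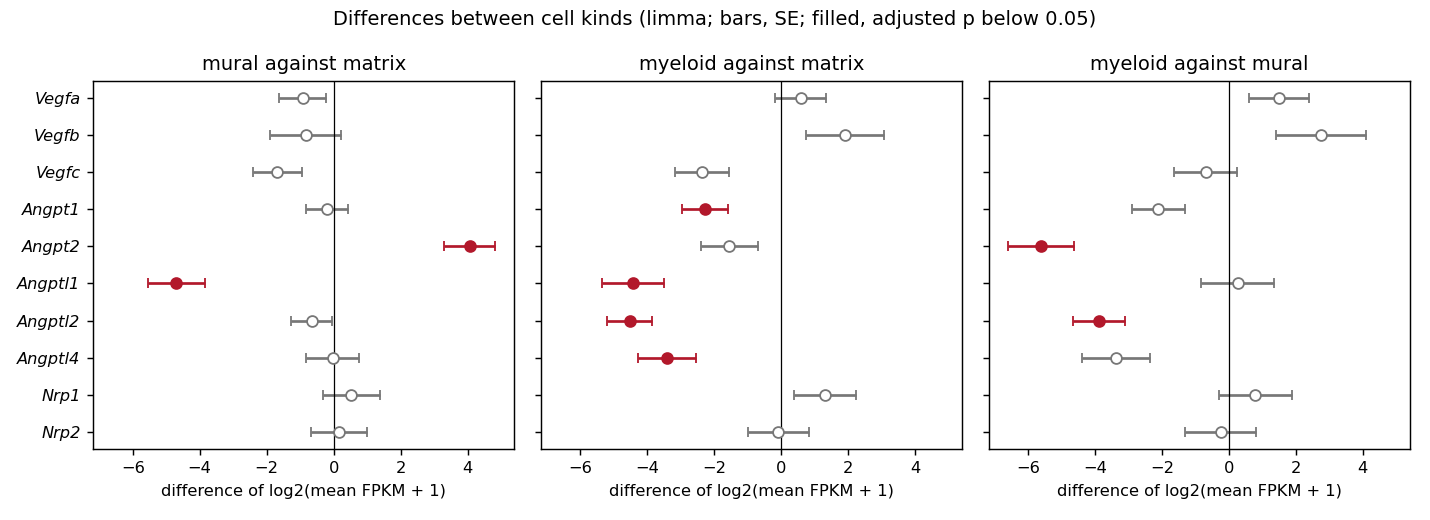
Differences of log2(mean FPKM + 1) between cell kinds for the 10 genes, with bars for the SE of the limma fit and filled points for an adjusted p below 0.05. Angpt2 (4.06) and Angptl1 (-4.70) pass on opposite sides for mural against matrix cells, and Angptl2 (-4.53) is the lowest for myeloid against matrix cells.

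Among the VEGF ligands, Vegfa, the main driver of endothelial sprouting, was detected in few of these cells. It was above 0 FPKM in 46 of 198 matrix cells (23.2%), 13 of 57 mural cells (22.8%) and 8 of 26 myeloid cells (30.8%). Its capture means in matrix cells ran from 0.0695 FPKM over a median of 1.37 to 5.69 FPKM. In mural cells they were 0.07, 0 and 1.61 FPKM in the day 12 captures 1 to 3, 0 FPKM at day 15 and 4.60 FPKM at day 21. In myeloid cells they were 13 FPKM in day 12 capture 2, 0.512 FPKM in day 15 capture 2, and 4.24 and 0 FPKM in the day 21 captures. The kinds overlapped, and a single myeloid cell at 128 FPKM held 76.7% of the myeloid sum. The difference from matrix cells was -0.93 (SE 0.69, limma adjusted p = 0.66) in mural cells and 0.58 (SE 0.76, adjusted p = 0.64) in myeloid cells. Detection in matrix cells varied between captures from 4.55% to 70.6%, and the 70.6% was seen in day 12 capture 3, where the mean level was 1.37 FPKM. In mural cells it varied from 0% to 57.1%, and the 57.1% was seen in the same capture.

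Vegfb, a ligand of Flt1 that is known more for effects on metabolism than on sprouting, was as sparse but reached higher levels. It was detected in 36 of 198 matrix, 7 of 57 mural and 10 of 26 myeloid cells. Matrix capture means ran from 1.04 to 10.1 FPKM with a median of 5.83 FPKM. Myeloid means were 75.2 FPKM in day 12 capture 2, 0 FPKM in day 15 capture 2, and 74.4 and 8.70 FPKM in the day 21 captures. The 3 highest myeloid cells held 91.9% of the myeloid sum, and in mural cells a single day 15 cell at 640 FPKM held 83.9%. The myeloid difference from matrix cells was 1.90 (SE 1.16, limma adjusted p = 0.28), and 3 of 4 captures were higher. With mural and myeloid cells limited to those below 1000 FPKM of Col1a1, a setting chosen after seeing the data, it was 3.40 (adjusted p = 0.031), and without day 15 capture 2 it was 3.50 (adjusted p = 0.039).

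Vegfc, the ligand of lymphatic vessel growth, was detected most often in matrix cells. It was detected in 34 of 198 matrix cells (17.2%), 3 of 57 mural cells (5.26%) and 1 of 26 myeloid cells (3.85%). Matrix capture means ran from 0.15 FPKM in day 12 capture 1 to 19.9 FPKM in day 21 capture 2, with a median of 4.59 FPKM. Mural means reached at most 2.99 FPKM and myeloid means 0.72 FPKM. The ranges overlapped through day 12 capture 1, the lowest of the matrix captures. The difference from matrix cells was -1.68 (SE 0.72, limma adjusted p = 0.36) in mural and -2.37 (SE 0.80, adjusted p = 0.059) in myeloid cells, so neither passed. Without mural and myeloid cells at 1000 FPKM of Col1a1, a setting chosen after seeing the data, they were -2.30 (adjusted p = 0.049) and -2.88 (adjusted p = 0.032). That setting called 5.13% and 11.1% of all genes, against 1.05% and 15.7% in the main fit. Matrix cells are defined by high Col1a1, so it also sets the kinds further apart on that gene.

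Among the angiopoietins, Angpt2 was higher in mural cells. It was detected in 38 of 57 mural cells (66.7%), against 35 of 198 matrix cells (17.7%) and 2 of 26 myeloid cells (7.69%). Those 2 myeloid cells had 2204076 and 2498314 estimated fragments and at most 0.14 FPKM, about the worth of a single fragment at their depth. Mural capture means were 195, 17.6 and 57 FPKM in the day 12 captures 1 to 3, 55 FPKM in day 15 capture 1 and 59.6 FPKM in day 21 capture 1. Matrix means ran from 0 to 9.42 FPKM with a median of 2.46 FPKM. A single cell held 69.3%, 86.0% and 89.4% of the sum in the day 12 captures, where the median of the detected cells was 7.79, 0.98 and 3.53 FPKM. In the later captures the highest cell held 41.5% and 35.3%, and those medians were 44.1 and 58.6 FPKM. The mural capture means were all above the matrix capture means. The difference was 4.06 (SE 0.77, limma adjusted p = 0.023) and was positive in 5 of 5 captures, from 0.84 in day 12 capture 2 to 5.92 in day 21 capture 1. The call did not hold without each of 4 captures: the adjusted p was 0.11 without day 12 capture 1, 0.056 without day 12 capture 3, 0.11 without day 15 capture 1 and 0.084 without day 21 capture 1. Without mural cells at 1000 FPKM of Col1a1 the difference was 3.71 (adjusted p = 0.056). Endothelial markers summed to 72.9 to 285 FPKM in mural cells, against at most 8.86 FPKM in the other kinds. Their part in the Angpt2 difference was not tested.

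Myeloid cells had Angpt2 at 0 in each of the 4 captures with 3 or more cells. The fitted difference from mural cells was -5.62 (SE 0.99, limma adjusted p = 0.0039), a value that depends on the pseudocount, since a fold cannot be given against a group listed at 0. Only 2 captures held both kinds, and the call was lost in a fit of these kinds alone (adjusted p = 0.1) and without the cells at 1000 FPKM of Col1a1 (-5.19, adjusted p = 0.053). Angpt2 lies on chromosome 8 (18690263 to 18741562, minus strand, GRCm38) within Mcph1 on the plus strand. The library is not stated to keep the strand, so reads of both cannot be told apart with certainty. Mcph1, a gene of chromosome condensation, had capture means of 6.79 ± 8.70 FPKM (SD, n = 5) in mural and 2.42 ± 1.93 FPKM (n = 7) in matrix cells, below Angpt2 in mural cells.

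Angpt1, the agonist of Tek, was sparse in matrix and mural cells and was not detected in myeloid cells. It was above 0 in 39 of 198 matrix cells (19.7%) and 15 of 57 mural cells (26.3%). In myeloid cells it was detected in 0 of 26, which allows a share of up to 11.5% by counting error alone. Matrix means ran from 0.157 to 10.5 FPKM with a median of 4.23 FPKM. Mural means were 2.87, 5.38 and 2.72 FPKM at day 12, 0.523 FPKM at day 15 and 1.33 FPKM at day 21, within the matrix range. The mural difference was -0.19 (SE 0.63, limma adjusted p = 0.94). The fitted myeloid difference from matrix cells was -2.29 (SE 0.69, adjusted p = 0.038), but the matrix mean in day 21 capture 1 was only 0.157 FPKM. This call was lost in 12 of 21 alternatives, with an adjusted p of 0.0091 to 0.30 over them, among them without day 12 capture 2 (0.12), day 12 capture 3 (0.051), day 15 capture 1 (0.052), day 15 capture 2 (0.089) or day 21 capture 2 (0.14).

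Angpt1 and Angpt2 were not kept to separate cells. Counting any value above 0, 10 of 57 mural cells had both, 28 had Angpt2 without Angpt1, 5 had Angpt1 without Angpt2, and 14 had neither. Of 198 matrix cells, 10 had both and 134 had neither.

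Among the angiopoietin-like genes, Angptl1 was higher in matrix cells than in the other kinds. Angptl1 encodes a secreted protein described as limiting endothelial growth. It was detected in 114 of 198 matrix cells (57.6%), 16 of 57 mural cells (28.1%) and 3 of 26 myeloid cells (11.5%). Matrix capture means ran from 14.7 FPKM in day 15 capture 2 to 169 FPKM in day 12 capture 1, with a median of 91.7 FPKM. Mural means were 4.04, 0 and 2.55 FPKM in the day 12 captures, 0.0972 FPKM at day 15 and 42 FPKM at day 21. Myeloid means were 0.18 FPKM in day 12 capture 2, 4.03 FPKM in day 15 capture 2, and 23.9 and 0 FPKM in the day 21 captures. Day 15 capture 2 was the low capture in matrix cells, and day 21 capture 1 the high capture in the other kinds, where the ranges overlapped.

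The mural difference of Angptl1 was -4.70 (SE 0.85, limma adjusted p = 0.016), negative in 5 of 5 captures. The myeloid difference was -4.44 (SE 0.93, adjusted p = 0.0073), negative in 4 of 4 captures. The mural cells of day 21 capture 1, which had the most Angptl1, also had the largest matrix marker sum, and without that capture the mural difference was -5.37 (adjusted p = 0.020). Without mural and myeloid cells at 1000 FPKM of Col1a1, a setting chosen after seeing the data, the differences were -6.42 (adjusted p = 0.00051) and -6.62 (adjusted p = 0.00049). As for Vegfc, this setting also sets the kinds further apart on Col1a1. It called 5.13% and 11.1% of all genes, against 1.05% and 15.7% in the main fit. The mural call did not hold without day 12 capture 1 (adjusted p = 0.077), day 12 capture 2 (0.11), day 12 capture 3 (0.063) or day 15 capture 1 (0.089). Angptl1 (chromosome 1, 156838562 to 156861078, plus strand, GRCm38) overlaps Ralgps2 on the minus strand, which had 6.23 ± 6.93 FPKM (SD, n = 7) in matrix and 3.8 ± 4.78 FPKM (n = 5) in mural cells.

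In single cells Angpt2 and Angptl1 were found both alone and together. Of 57 mural cells, 25 had Angpt2 without Angptl1, 3 had Angptl1 without Angpt2 and 13 had both. Of 198 matrix cells, 90 had Angptl1 without Angpt2, 11 had Angpt2 without Angptl1 and 24 had both. Among all matrix cells 57.6% had Angptl1. Any value above 0 was counted, and many were low. The 11 matrix cells with Angpt2 in day 12 capture 1 had a median of 0.35 FPKM. An association of the 2 genes was not tested.

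**Figure D3:**
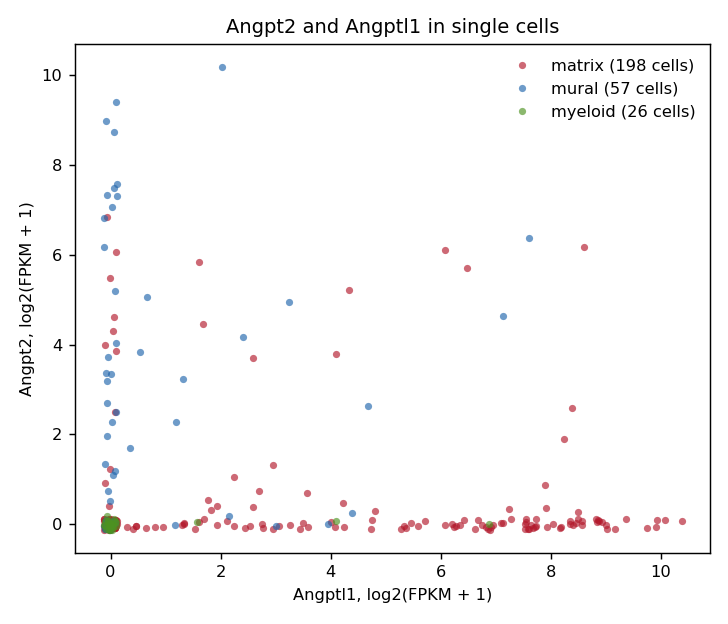
Angpt2 against Angptl1 in 198 matrix, 57 mural and 26 myeloid cells, both as log2(FPKM + 1), with a small random offset to separate points. Counting any value above 0, 25 mural cells had Angpt2 alone and 13 had both genes, while 90 matrix cells had Angptl1 alone and 24 had both.

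Angptl2, a secreted protein linked to inflammation and matrix remodelling, was the most widely detected of the 10 genes. It was above 0 in 168 of 198 matrix cells (84.8%) and 41 of 57 mural cells (71.9%), but in 3 of 26 myeloid cells (11.5%). Matrix capture means ran from 63.4 FPKM over a median of 93.8 to 178 FPKM. Mural means were 82.4, 149 and 79.6 FPKM at day 12, 38.2 FPKM at day 15 and 28.2 FPKM at day 21. Myeloid means were 5.79, 13.8, 2.22 and 0 FPKM. The myeloid captures were all below the captures of the other kinds, while mural and matrix captures overlapped.

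The myeloid difference of Angptl2 was -4.53 against matrix cells (SE 0.67, limma adjusted p = 0.00096, lower in 4 of 4 captures) and -3.88 against mural cells (SE 0.78, adjusted p = 0.0091, lower in 2 of 2 captures). The first held in each of 21 alternatives, from -6.56 to -2.90. The second did not hold without day 12 capture 2 (adjusted p = 0.079) or in a fit of these kinds alone (0.27). The mural difference from matrix cells was -0.65 (SE 0.61, adjusted p = 0.76), although it was negative in 5 of 5 captures. Of the 3 myeloid cells with Angptl2, all 3 also had Angptl1. Angptl2 (chromosome 2, 33216069 to 33247717, plus strand, GRCm38) overlaps Ralgps1 on the minus strand, which was detected in 11 of 198 matrix cells.

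Angptl1 and Angptl2 were both lower in myeloid than in matrix cells, so their start regions are shown. RefSeq gives promoter entries, 250 bases before to 50 after a start (GRCm38.p6), for 7 of the 10 genes, with 8 entries. Capitals mark a match, on either strand, of the hypoxia response core ACGTG, the GC box GGGCGG, the CCAAT box, the TATA box motif TATAAA, the E-box CACGTG, which holds the hypoxia core within it, or the partial cAMP response element TGACGT. The window of Angptl1 is chr1:156838773-156839072 and that of Angptl2 is chr2:33215711-33216010, both on the plus strand.
Angptl1: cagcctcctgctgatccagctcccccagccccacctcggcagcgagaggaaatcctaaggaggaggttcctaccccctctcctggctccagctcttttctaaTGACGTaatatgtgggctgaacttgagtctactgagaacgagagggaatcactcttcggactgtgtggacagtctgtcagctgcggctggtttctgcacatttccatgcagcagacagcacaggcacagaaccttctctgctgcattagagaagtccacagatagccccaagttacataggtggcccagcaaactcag
Angptl2: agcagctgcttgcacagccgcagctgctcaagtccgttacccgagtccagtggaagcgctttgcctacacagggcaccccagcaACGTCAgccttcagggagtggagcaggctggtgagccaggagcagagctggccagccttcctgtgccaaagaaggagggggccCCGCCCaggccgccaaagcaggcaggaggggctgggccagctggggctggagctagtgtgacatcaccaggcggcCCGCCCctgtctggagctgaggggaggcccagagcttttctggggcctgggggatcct
Both windows held TGACGT, which 7.51% of all 32851 promoter entries held. An entry of Vegfa, which was not called between myeloid and matrix cells, held it as well. Angptl2 also held the GC box GGGCGG on the reverse strand, as did 35.7% of all entries. Neither window held the other motifs, which 19.6% (ACGTG), 37.4% (the CCAAT box), 13.6% (the TATA box) and 7.15% (the E-box) of entries held. A match of letters is a description and not a site of binding.

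Angptl4 encodes a secreted inhibitor of lipoprotein lipase that is induced by fasting and low oxygen. It was detected in 69 of 198 matrix cells (34.8%), 28 of 57 mural cells (49.1%) and 4 of 26 myeloid cells (15.4%). Matrix capture means were 5.70 to 77.2 FPKM with a median of 41.6 FPKM, and mural means 5.49 to 95.1 FPKM with a median of 59.9 FPKM. Myeloid means were 0.0455, 0, 4.01 and 0 FPKM in the 4 captures with 3 or more cells, below every matrix and mural capture. Another 2 of the 4 myeloid cells with Angptl4, at 78.1 and 24.8 FPKM, lay in day 12 captures 1 and 3, which had 2 and 1 myeloid cells and were left out of the means and the test. The myeloid difference from matrix cells was -3.41 (SE 0.87, limma adjusted p = 0.019), lower in 4 of 4 captures. It did not hold without day 12 capture 2 (-2.35, adjusted p = 0.11), and 7 of 21 alternatives lost it, including log2 averaged over cells (-1.43, adjusted p = 0.10). Against mural cells it was -3.38 (adjusted p = 0.063), and -4.74 (adjusted p = 0.035) without day 21 capture 1. The mural difference was -0.03 (SE 0.79, adjusted p = 0.99).

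Angptl4 was detected in a larger share of cells in the day 12 captures than in the later captures. In matrix cells it was detected in 58.1%, 76.9% and 58.8% of cells in the day 12 captures, in 24% and 18.2% in the day 15 captures, and in 22.2% and 2.94% in the day 21 captures. Each day 12 capture was above each later capture. In mural cells the shares were 66.7%, 71.4% and 78.6% at day 12, 16.7% at day 15 and 37.5% at day 21. These shares are described without a test. The median kept cell had 1655163 estimated fragments at day 12, 964230 at day 15 and 2235636 at day 21.

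The mean level of Angptl4 gave a less even picture. Matrix means were 50.3, 77.2 and 41.6 FPKM at day 12, 42.2 and 8.61 FPKM at day 15, and 19.9 and 5.70 FPKM at day 21. A single cell at 1780 FPKM held 84.5% of the sum in day 15 capture 1, and the highest cell held 82.3% to 100% of the sum in the other later captures. On log2(mean FPKM + 1) the difference was -1.45 (SE 0.78, limma adjusted p = 0.87) for day 15 against day 12 and -2.23 (SE 0.78, adjusted p = 0.58) for day 21 against day 12, and neither passed. When log2(FPKM + 1) was averaged over cells instead, the differences were -2.46 (adjusted p = 0.031) and -2.63 (adjusted p = 0.011), and both passed, beside 28 and 70 of all genes. That mean gives less weight to single cells of very high level. The call therefore depends on how cells were averaged.

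**Figure D4:**
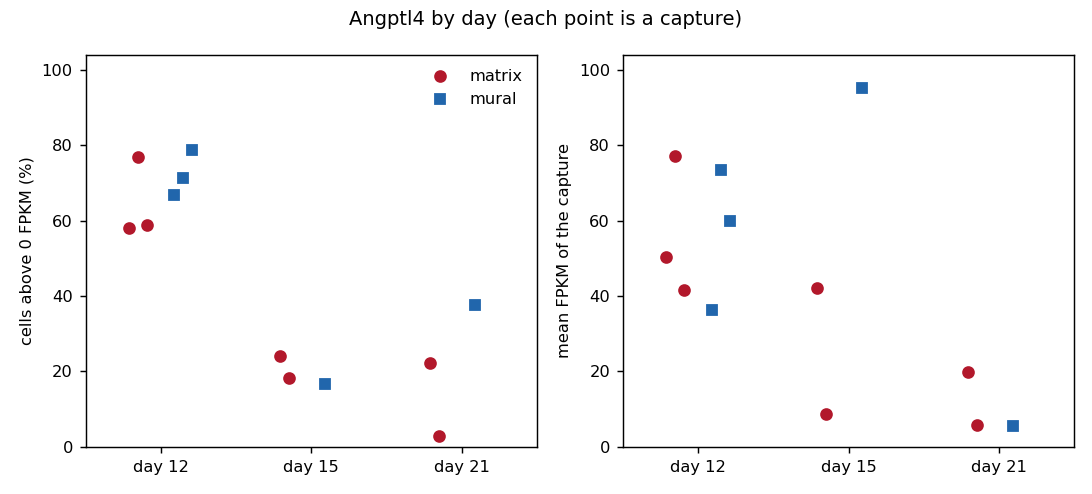
Angptl4 by day in matrix cells (circles) and mural cells (squares), with a point per capture, as the share of cells above 0 FPKM on the left and the mean FPKM on the right. The shares of the day 12 captures, 58.1% to 78.6%, lie above those of the later captures, 2.94% to 37.5%, while the means overlap.

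Counting any value above 0, the neuropilins were detected in most cells of every kind. Nrp1, the co-receptor of Vegfa and Sema3a, was above 0 in 116 of 198 matrix cells (58.6%), 35 of 57 mural cells (61.4%) and 21 of 26 myeloid cells (80.8%). Matrix means ran from 15.0 FPKM over a median of 22.3 to 43 FPKM. Mural means were 28.2, 89.1 and 40.7 FPKM at day 12, 73.3 FPKM at day 15 and 2.40 FPKM at day 21. Myeloid means were 53.9 FPKM in day 12 capture 2, 85.3 FPKM in day 15 capture 2, and 8.32 and 188 FPKM in the day 21 captures. Day 21 capture 1 was the lowest in both mural and myeloid cells and the highest in matrix cells. The difference from matrix cells was 0.53 (SE 0.84, limma adjusted p = 0.89) in mural and 1.31 (SE 0.93, adjusted p = 0.35) in myeloid cells, so neither passed.

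Nrp2, the co-receptor of Vegfc and Sema3f, was above 0 in 133 of 198 matrix cells (67.2%), 32 of 57 mural cells (56.1%) and 21 of 26 myeloid cells (80.8%). Its levels were lower, with matrix means from 3.99 FPKM over a median of 13.3 to 17.8 FPKM. Mural means were 38.1, 9.28 and 2.22 FPKM at day 12, 9.54 FPKM at day 15 and 58.1 FPKM at day 21, and myeloid means were 45.5, 6.36, 11.2 and 9.73 FPKM. The kinds overlapped, with differences from matrix cells of 0.16 (SE 0.84, limma adjusted p = 0.96) in mural and -0.09 (SE 0.92, adjusted p = 0.96) in myeloid cells. Counting only cells from 1 FPKM on, the matrix share was 47.5%. At that limit Nrp1 in matrix cells and Nrp2 in mural cells were also no longer found in most cells. Both neuropilins were found in 82 of 198 matrix, 21 of 57 mural and 17 of 26 myeloid cells.

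**Figure D5:**
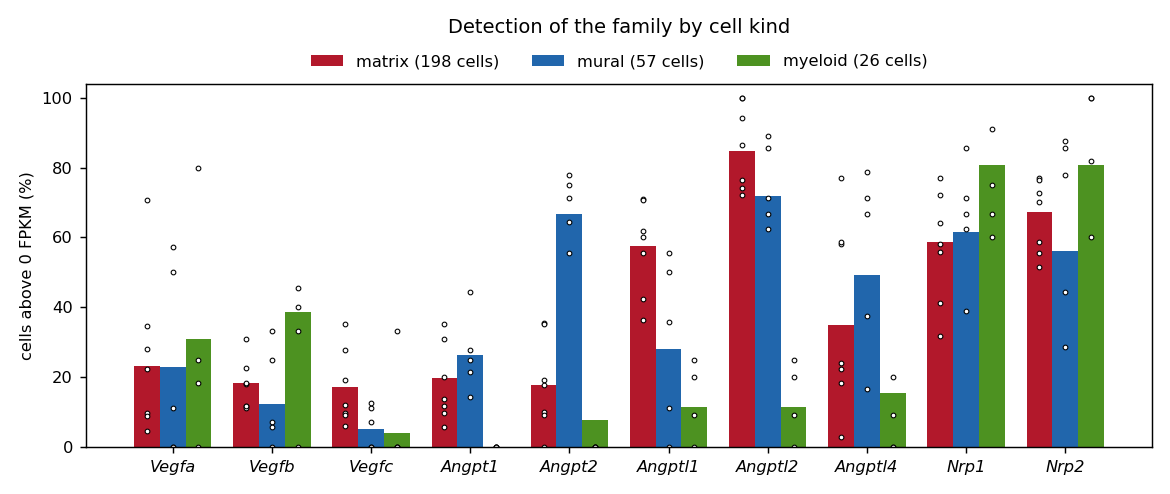
Share of cells above 0 FPKM for the 10 genes in matrix, mural and myeloid cells, with bars for all kept cells of a kind and open points for captures with 3 or more cells. Angpt2 is highest in mural cells (66.7%), Angptl2 in matrix cells (84.8%), and the neuropilins are detected in more than any ligand of myeloid cells (80.8%).

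Between days no member passed the test in matrix cells. For day 15 against day 12 none of 13552 genes passed (0%), with 791 genes at an unadjusted p under 0.05. For day 21 against day 12, 0 of 10 members passed, against 0.00738% of all genes (1 gene, with 968 at an unadjusted p under 0.05), and for day 21 against day 15 none did (0%, 745 genes at an unadjusted p under 0.05). After Angptl4, the lowest unadjusted p was that of Angptl1 for day 21 against day 15, with a difference of 1.91 (SE 0.79, limma adjusted p = 0.87). The difference between mural and matrix cells was also compared between day 12 and the later days. No member passed, and none of 13855 genes did (0%, 705 at an unadjusted p under 0.05). For Angpt2 this difference of differences was -2.37 (SE 1.61, adjusted p = 0.89) and for Nrp1 2.12 (SE 1.68, adjusted p = 0.90).

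The receptors of these ligands were rarely detected, apart from Flt1. Flt4, the receptor of Vegfc, was at 0 in all kinds, and Kdr, the main receptor of Vegfa, was detected in 0 of 198 matrix, 1 of 57 mural and 1 of 26 myeloid cells. Tek was detected in 12 of 198 matrix cells and in no mural or myeloid cell, and the mean of Tie1 was at most 0.181 FPKM in each capture. Flt1, which binds Vegfa, Vegfb and Pgf, was detected in 34 of 57 mural cells with capture means of 1.66 to 25.8 FPKM, against at most 0.0539 FPKM in matrix cells. Of 5 receptors only Flt1 reached the mean of 1 FPKM needed for the test, and it did so mainly through the mural captures. The fitted difference of mural from matrix cells was 3.42 (SE 0.63, limma adjusted p = 0.019). Since the kind where Flt1 was high let it through the filter, this call adds little to the levels themselves. Of 10 endothelial markers 7 were detected in mural cells, with a sum of 72.9 to 285 FPKM per capture against at most 8.86 FPKM in the other kinds, and Cdh5, Cldn5 and Tek were at 0. Their part in the Flt1 difference was not tested.

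Of 7 other ligands 4 were tested. Vegfd, a further ligand of Flt4, was lower in myeloid than in matrix cells by -3.32 (SE 0.71, limma adjusted p = 0.0078), and no other ligand passed in any comparison of kinds. It was detected in 59 of 198 matrix cells, with capture means of 10.0 ± 4.93 FPKM (SD, n = 7). Pgf, a ligand of Flt1, was detected in 6 of 198 matrix, 7 of 57 mural and 1 of 26 myeloid cells. Of 12 neuropilin partners 9 were tested between kinds. In myeloid cells 4 were lower than in matrix cells and none higher, where 15.7% of all genes passed, 1772 of 2200 of them lower: Sema3c (-5.07), Sema3a (-4.93), Sema3d (-3.82) and Sema3b (-3.20), with adjusted p of 0.0036, 0.0047, 0.0045 and 0.037. These encode secreted semaphorins that bind neuropilins. In mural cells Sema3d was lower (-3.08, SE 0.66, adjusted p = 0.042). Sema3a had 94.0 ± 44.9 FPKM in matrix captures (SD, n = 7).

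Of 8 oxygen sensing genes 7 were tested. Epas1, which encodes HIF-2 alpha, was higher in mural than in matrix cells by 6.05 (SE 0.60, limma adjusted p = 0.00018) and lower in myeloid than in mural cells by -6.41 (SE 0.77, adjusted p = 0.00020). Its mean over captures was 93.6 FPKM in mural, 0.408 FPKM in matrix and 0.191 FPKM in myeloid cells. It thus reached the filter of 1 FPKM through the mural captures, and both calls rest on that. Of 10 hypoxia response genes 9 were tested between kinds, and 3 were lower in myeloid than in matrix cells, namely Ndrg1 (-3.74), Pgk1 (-3.09) and Bnip3 (-2.90), with none higher, beside the same 15.7% of all genes. None passed between mural and matrix cells. Of 8 genes close to Angptl4 in lipid metabolism all were tested. The fatty acid carrier Fabp4 was higher in mural than in matrix cells by 4.47 (SE 0.82, adjusted p = 0.018), and Plin2, a coat protein of lipid droplets, was higher in myeloid cells by 4.34 (SE 0.87, adjusted p = 0.0058), whereas Angptl4 was lower there. Between myeloid and mural cells Fabp4 was lower (-5.57, adjusted p = 0.0062) and Plin2 higher (3.65, adjusted p = 0.046). Of 8 genes that hold or release VEGF in the matrix, 5 were lower in myeloid than in matrix cells, with Thbs2 (-5.13), Sdc2 (-3.53), Adamts1 (-3.19) and Thbs1 (-3.00) the farthest, again beside 15.7% of all genes, and none passed between mural and matrix cells. Between myeloid and mural cells Sdc2 (-4.32) and Adamts1 (-4.08) were lower and Sdc4 (2.71) higher.

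The median difference between myeloid and matrix cells, -0.85 over all genes, was -1.29 for the other ligands, -1.97 for the neuropilin partners, -1.28 for oxygen sensing, -2.55 for the hypoxia response, -0.98 for the lipid genes and -2.73 for the matrix holders. Between mural and matrix cells, with -0.25 over all genes, these medians were -0.64, -1.88, -0.25, -0.14, -0.01 and -0.64 in the same order. None of these lists had a gene past the threshold between days.

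The genes most like 6 members over the 16 profiles of captures and kinds were listed by Pearson's r of log2(mean FPKM + 1), as a description. The profiles share captures and the kinds, so a gene of the same kind scores high. For Angptl2 these were Smarcb1 (0.957), Nid1 (0.955) and Gpx3 (0.955), and for Angptl4 Zfp809 (0.929), Armcx2 (0.920) and Atp2a2 (0.911). For Angpt1 they were Mrpl50 (0.906), Timm50 (0.900) and Marveld1 (0.879). For Vegfa they were Flvcr1 (0.859), Hace1 (0.838) and Iqcb1 (0.821). Nrp1 went with Anxa3 (0.830), Ndufv2 (0.817) and Ndufa7 (0.791), and Nrp2 with Scyl2 (0.824), Slc25a38 (0.779) and Eaf1 (0.749).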

How the data were processed

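RNA of single tdTomato-high wound cells was sequenced as full-length cDNA in paired ends, in 7 captures with 367 cells. The authors aligned the reads with Bowtie 1.0.0 to mm10 and computed expression with RSEM, per the labels and the methods of the study, and deposited FPKM per gene and cell. FPKM is relative to the total of a cell, so high levels of a few genes lower the others. Every value column was used (0 left out). Symbols and positions came from GENCODE mouse release 21 (GRCm38), which holds 50376 of 50600 identifiers.

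The members and lists were chosen with earlier results of these data known. The files hold no counts, so count tests were not run. Fragments per cell were estimated from the spacing of low FPKM values over 9420 genes with 1 transcript, each 1000 bp or longer, taking fragments as 300 bp. Cells with fewer than 159000 estimated fragments, more than 11000 genes or more than 15% mitochondrial FPKM were left out. Intervals of a count of 0 use 3 counts and cover counting error only.

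Values were averaged per capture and kind with at least 3 cells. log2(mean FPKM + 1) was tested with limma 3.58.1 in R 4.3.3 (moderated, variance trend, two-sided, Benjamini-Hochberg), over genes whose mean reached 1 FPKM, after a check on simulated data. Kinds were compared in 16 profiles with the capture as a block, since cells of a capture share a suspension, and days in 7 matrix profiles. Between days, matrix captures of the same number had correlations of their deviations of -0.00685 to 0.025, so the numbers do not pair captures. All 10 members are named. Of other lists up to 4 genes that passed per comparison are named, by size of the difference, and for 6 members the 3 most similar genes. Alternatives were the averaging of cells, pseudocounts of 0.1 and 10, the filter on genes, all cells, TPM, at least 5 cells, other limits of the kinds (Col1a1 500 or 2000, Rgs5 and Tyrobp 250 or 1000 FPKM), weights, the variance trend, the block, the kinds compared alone and each capture left out. Leaving out mural and myeloid cells at 1000 FPKM of Col1a1 was added after seeing the data. Python 3.11.15 with numpy 2.4.6, pandas 2.3.3 and matplotlib 3.10.9 was used.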

Additional observations from a re-analysis of the deposited data

Results flagged for a closer look

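The highest or lowest capture stood apart from the others of its group in 3 of 28 sets of captures tested with Dixon's criterion, and chance flags about 1 set in 20. Nrp2 in matrix cells was 3.99 FPKM in day 12 capture 1, against 12.0 to 17.8 FPKM in the other captures. Vegfc in myeloid cells was 0.72 FPKM in day 21 capture 2, from a single cell, and 0 FPKM in the other 3 captures, where any value above 0 would have stood apart, so the rate of chance does not apply. Angptl4 in myeloid cells was 4.01 FPKM in day 21 capture 1, also from a single cell, against 0 to 0.0455 FPKM in the others. These lay at or near 0, so the rate of chance does not apply there either.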

How the results depend on the processing

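Of 1399 alternative values for single members, 1251 kept their direction and side of the threshold, 38 lost a call, 20 gained a call, and 90 changed sign without a call in either. No called difference reversed. For mural against matrix cells the number of members called, 2, was 0 with a pseudocount of 0.1, 0 with no filter on low values and 1 with at least 5 cells, and 0 to 2 with a capture left out. For myeloid against matrix cells the number, 4, was 2 with log2 averaged over cells, with a pseudocount of 10, with no filter, with all deposited cells and with at least 5 cells, 1 with the kinds compared alone, 6 with a pseudocount of 0.1, 5 with TPM and with weights, and 2 to 5 with a capture left out. For myeloid against mural cells the number, 2, was 4 with a pseudocount of 0.1, 3 with weights and with lower limits of the kinds, 0 with the kinds compared alone and 1 to 3 with a capture left out. For matrix cells at day 15 and at day 21 against day 12 the number, 0, was 1 with log2 averaged over cells. In those comparisons of days the calls over all genes, 0 and 1, became 28 and 70 with log2 averaged over cells, 1 at day 15 with weights and 3 at day 21 with higher limits of the kinds. The causes were not tested. Fits with captures or kinds left out also had fewer profiles. Without the replicate block the numbers were 2, 5 and 3 for the 3 comparisons of kinds. With a replicate block on the capture number, which does not pair captures, the number stayed 0 in each comparison of days. Without mural and myeloid cells at 1000 FPKM of Col1a1 the numbers were 2, 5 and 2, but Vegfc replaced Angpt2 for mural against matrix cells, Vegfb (5.6, adjusted p = 0.0045) replaced Angpt2 for myeloid against mural cells, and for myeloid against matrix cells Angpt1 was lost (-2.20, adjusted p = 0.11) and Vegfb and Vegfc were gained. Over all genes the 147 calls for mural against matrix cells became 710 under that setting, 881 with weights, 433 with log2 averaged over cells, 252 without the block, 236 with the kinds alone, 82 with a pseudocount of 0.1, 48 with no filter and 47 to 154 with a capture left out; the 2200 for myeloid against matrix cells became 2934 with a pseudocount of 0.1, 3042 without the block, 1048 with a pseudocount of 10, 1173 with no filter, 861 with the kinds alone, 829 with at least 5 cells and 1287 to 1951 with a capture left out; and the 918 for myeloid against mural cells became 2031 without the block, 530 with a pseudocount of 10, 497 with no filter, 609 with all cells, 610 without the cells at 1000 FPKM of Col1a1, 308 with the kinds alone and 466 to 973 with a capture left out. Rescaling to TPM moved the median of all genes from -0.85 to -1.06 for myeloid against matrix cells. Of 60 alternative detection shares 6 moved by more than the spread between captures. A count of 0 allows a share of up to 11.5% over all 26 myeloid cells, and of up to 27.3% in the capture with 11 of them and 100% in that with 3.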

Other observations

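The 11 cells outside the kinds had Angptl2 in 8 cells, Nrp2 in 8 and Nrp1 in 7, and Vegfc in 0. Flt1 was detected in 5 of these cells, up to 319 FPKM. A kept cell had a median of 4 of the 10 members in matrix and mural cells and 3 in myeloid cells, with at most 9 in a single mural cell.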
